A study of Homo sapiens with 4 samples.

Results

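Messenger RNA of 9 genes of the major histocompatibility complex (MHC) class I antigen presentation pathway was compared between Cal51, a human triple-negative breast cancer cell line, and Cal51R, a doxorubicin-resistant derivative of it. The genes were taken by symbol from a table of 17215 genes, and all 9 were present: HLA-B, HLA-C, B2M, TAP1, TAP2, TAPBP, ERAP1, ERAP2 and NLRC5. Each line was represented by 2 RNA-seq libraries made from oligo(dT)-enriched mRNA. Per its design text, the series set out to look for deubiquitinases behind doxorubicin resistance. The sources used here do not give the drug exposure that produced Cal51R, whether it is 1 clone or a pool, or whether a line's libraries are separate cultures. The p-values therefore measure only how far these libraries spread, and that spread may be technical.

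MHC class I molecules show peptides from inside the cell to CD8 T cells. Proteasomes cut proteins into peptides, the TAP1-TAP2 transporter carries these into the endoplasmic reticulum, ERAP1 and ERAP2 trim them there, and tapasin, the product of TAPBP, holds empty class I molecules at the transporter until a peptide binds. A class I molecule is a heavy chain, such as HLA-B or HLA-C, bound to the light chain beta-2-microglobulin, the product of B2M. NLRC5 is a nuclear protein that activates class I genes through a promoter module read by the RFX, CREB/ATF and NF-Y factors, and interferons raise most genes of the pathway through interferon-stimulated response elements (ISRE) and NF-kB sites.

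Promoter windows of 7 of the genes are printed because they hold the words that these factors are known to read, and the rest of the report refers to them. The windows come from RefSeq on GRCh38.p14, run from 250 bases before to 50 bases after an annotated start and are written 5′ to 3′ along the gene. Of the 9 genes, 8 had a window. Capitals mark ISRE words (GAANNGAAA, or the same word with 1 more A before the NN, on either strand), matches to the NF-kB consensus on either strand, and, where both occur at the spacing of the NLRC5-dependent module, the words TGACG and ATTGG. The second of these is the NF-Y box CCAAT read on the other strand. Words can overlap, as the ISRE words do in B2M, TAP1, TAP2, TAPBP and ERAP2. The words were chosen with the windows in view.
HLA-B, chr6:31357130-31357429, minus strand: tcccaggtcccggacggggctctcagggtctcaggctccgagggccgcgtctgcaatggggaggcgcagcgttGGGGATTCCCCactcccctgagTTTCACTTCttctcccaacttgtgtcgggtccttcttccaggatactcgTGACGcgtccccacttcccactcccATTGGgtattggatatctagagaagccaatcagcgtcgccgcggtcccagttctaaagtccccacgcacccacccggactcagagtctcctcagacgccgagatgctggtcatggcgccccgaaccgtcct
HLA-C, chr6:31272043-31272342, minus strand: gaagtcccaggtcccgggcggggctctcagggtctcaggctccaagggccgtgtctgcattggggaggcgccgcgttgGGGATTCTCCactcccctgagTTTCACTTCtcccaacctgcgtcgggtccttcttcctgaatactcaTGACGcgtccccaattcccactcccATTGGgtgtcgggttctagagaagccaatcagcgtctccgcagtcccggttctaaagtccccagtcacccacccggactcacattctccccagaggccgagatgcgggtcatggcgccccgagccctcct
B2M, chr15:44711267-44711566, plus strand: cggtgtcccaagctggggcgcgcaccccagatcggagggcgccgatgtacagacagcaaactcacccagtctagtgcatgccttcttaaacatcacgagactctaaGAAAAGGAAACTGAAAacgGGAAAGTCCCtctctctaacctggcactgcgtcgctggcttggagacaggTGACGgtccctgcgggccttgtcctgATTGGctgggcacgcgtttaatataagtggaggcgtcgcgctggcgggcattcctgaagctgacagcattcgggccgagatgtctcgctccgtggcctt
TAP1, chr6:32853655-32853954, minus strand: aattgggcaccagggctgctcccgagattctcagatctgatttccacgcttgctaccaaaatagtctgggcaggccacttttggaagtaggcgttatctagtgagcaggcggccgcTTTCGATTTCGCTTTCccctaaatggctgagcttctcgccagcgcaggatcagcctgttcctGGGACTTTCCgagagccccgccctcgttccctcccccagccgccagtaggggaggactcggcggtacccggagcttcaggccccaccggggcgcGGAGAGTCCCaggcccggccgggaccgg
TAPBP, chr6:33314029-33314328, minus strand: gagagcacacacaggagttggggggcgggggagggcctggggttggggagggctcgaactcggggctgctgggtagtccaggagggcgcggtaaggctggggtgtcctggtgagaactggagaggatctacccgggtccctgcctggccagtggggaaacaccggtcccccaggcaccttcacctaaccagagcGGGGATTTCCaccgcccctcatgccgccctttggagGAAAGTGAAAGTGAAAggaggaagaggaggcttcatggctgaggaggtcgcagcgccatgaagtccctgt
ERAP1, chr5:96807896-96808195, minus strand: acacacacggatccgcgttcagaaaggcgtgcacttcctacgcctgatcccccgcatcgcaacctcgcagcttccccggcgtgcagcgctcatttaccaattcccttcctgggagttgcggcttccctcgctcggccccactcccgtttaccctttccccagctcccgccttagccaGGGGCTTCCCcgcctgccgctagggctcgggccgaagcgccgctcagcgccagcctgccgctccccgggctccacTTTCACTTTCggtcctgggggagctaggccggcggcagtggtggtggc
ERAP2, chr5:96876250-96876549, plus strand: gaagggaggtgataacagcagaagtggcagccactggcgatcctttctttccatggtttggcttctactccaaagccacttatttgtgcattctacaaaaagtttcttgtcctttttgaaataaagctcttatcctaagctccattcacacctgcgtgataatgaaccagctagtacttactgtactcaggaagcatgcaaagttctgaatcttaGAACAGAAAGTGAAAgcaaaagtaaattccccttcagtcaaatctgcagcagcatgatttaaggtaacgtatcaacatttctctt

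An ISRE word was found in at least 1 window of all 8 genes with a window, TAP2 included, against 10.6% of 35116 RefSeq promoter windows of the same length. A match to the NF-kB consensus was found for 6 of the 8, namely HLA-B, HLA-C, B2M, TAP1, TAPBP and ERAP1, against 11.3% of windows. The percentages are of single windows, whereas a gene with more than 1 window was counted if any held a match. Gene counts and percentages are thus in different units. The third set, TGACG followed by ATTGG with 24 to 27 bases from first base to first base, was present in HLA-B, HLA-C and B2M and in 80 of the 35116 windows (0.228%). Counted from the start site, TGACG began at -106 in HLA-B, -105 in HLA-C and -75 in B2M, and ATTGG followed 25, 25 and 26 bases later. The HLA-B and HLA-C windows are close copies, with 269 of 296 aligned bases identical (90.9%), so their matches are not independent. ERAP1 and ERAP2 carried their ISRE words at the start site (3 to 12) and just before it (-35 to -21). Some printed genes had another annotated window, and that of ERAP1 (start site 96814145) held an ISRE word at -180 to -172. Those of TAP1 (start site 32852761) and ERAP2 (start site 96875984) held none of the words searched, CCAAT and TGACG included. This ERAP2 window is at the annotated gene start, with 2 GENCODE coding transcripts starting within 100 bases, against 1 for the printed ERAP2 window (start site 96876500). The printed windows of TAP1 and TAPBP had 0 such transcripts. TGACG alone occurs in 24.6% and CCAAT in 34.6% of windows. A match describes the letters of the reference genome and is not a measurement of binding in these cells.

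The deposited expected read counts summed to 21636996 and 18537714 in Cal51 and to 17852379 and 19854849 in Cal51R, so that 3 counts in a library correspond to 0.139 to 0.174 CPM (counts scaled to a common, TMM-adjusted library size). Counts were compared with edgeR's quasi-likelihood test, with libraries scaled by the trimmed mean of M values (TMM), and a gene is said to have risen or fallen in Cal51R when its adjusted p was under 0.05. The lines differed widely: of 13674 genes tested, 9685 passed (70.8%), with 35.3% higher and 35.5% lower in Cal51R. Scaling by library totals in place of TMM raises the median log2 fold change of all genes by 0.20 and moves the share of higher genes among the calls from 49.9% to 64.7%, so every fold change given here is relative to the bulk of genes. Intervals and detection limits cover counting error and replicate spread of these libraries only. In bulk RNA, fewer cells with a transcript and less transcript per cell cannot be told apart.

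All 9 genes were tested. In Cal51R 6 rose (HLA-B, HLA-C, TAP1, TAPBP, ERAP1 and ERAP2), 1 fell (NLRC5), and 2 did not pass (B2M and TAP2). The 7 that passed are read against the 70.8% of all tested genes that did, and the 6 that rose against 35.3%. ERAP2 was the one gene that rose at least 2-fold, as 13.7% of all tested genes did, and none fell at least 2-fold, against 9.87%. The values of both lines did not overlap for 8 of the 9 genes, with B2M the exception, against 85.0% of all tested genes. The median log2 fold change of the 9 was 0.35, beside 0.02 over all genes tested. With library totals 8 of the 9 rose and NLRC5 again fell, beside 6395 rises and 3489 falls among the 13674 genes tested on that scale.

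**Figure D1:**
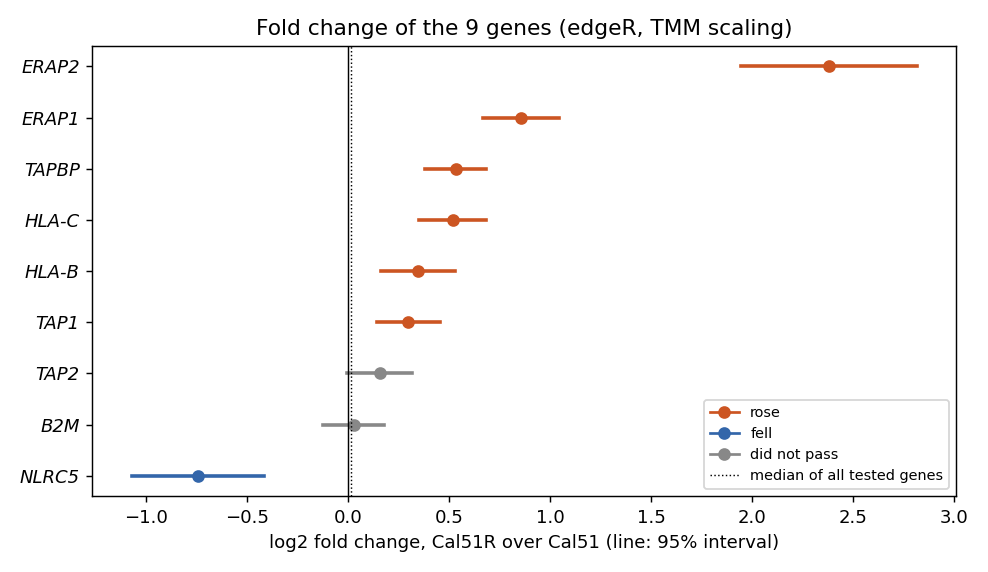
Log2 fold change of each of the 9 genes in Cal51R over Cal51 (x axis) with its 95% interval, from edgeR with TMM scaling. ERAP2 lies farthest to the right at 2.38, NLRC5 is the one gene left of 0 at -0.74, and the intervals of B2M and TAP2 include 0.

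The class I heavy chains rose moderately. HLA-B, the gene of 1 of the classical heavy chains, had 1002 and 910 reads in Cal51 against 1290 and 1328 in Cal51R. As CPM these are 49.3 and 52.9 in Cal51 and 68.4 and 61.6 in Cal51R. Both Cal51R libraries lay above both Cal51 libraries, and HLA-B was 1.27-fold higher (95% interval 1.12 to 1.44, log2 0.35 ± 0.09 SE, edgeR adjusted p = 0.00207). Without Cal51 replicate 1 the log2 fold change was 0.29 and the edgeR adjusted p 0.0619, in a range of 6.97e-08 to 0.0619 over all alternatives. HLA-C, a second classical heavy chain that is also a main ligand of killer-cell receptors on natural killer cells, had 1854 and 1655 reads in Cal51 against 2663 and 2748 in Cal51R. The groups were again apart, with means of 93.7 ± 3.56 and 134.3 ± 9.69 CPM (SD, n = 2 each). HLA-C was 1.43-fold higher (1.28 to 1.61, log2 0.52 ± 0.08 SE, edgeR adjusted p = 1.94e-05). These genes lie at chr6:31353875-31357179 (HLA-B) and chr6:31268749-31272092 (HLA-C), on the minus strand of GRCh38.p14. Class I heavy chains are highly alike and highly variable between people, so reads can be split between them or lost against the reference alleles in a way these files do not show, and the values of both are uncertain to that extent. In addition, 17.8% of the exonic bases of HLA-B overlap another GENCODE gene on the opposite strand (AL671883.2). No source used here says whether counting used strand, so the reads of such pairs cannot be told apart.

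The light chain did not move with the heavy chains on this scale. B2M, at chr15:44711517-44718145 on the plus strand, had 4205 and 3671 reads in Cal51 against 4095 and 4558 in Cal51R. The corresponding levels of 206.9 and 213.5 CPM in Cal51 overlapped those of 217.0 and 211.4 in Cal51R. The fold change was 1.02, with a 95% interval from 0.918 to 1.13 (edgeR adjusted p = 0.744). That interval narrowly overlaps the one of HLA-B (1.12 to 1.44) and lies below the one of HLA-C (1.28 to 1.61). The genes were not tested against each other. On scales that follow the library total B2M did pass: the log2 fold change was 0.23 with library totals (edgeR adjusted p = 0.00844) and 0.26 on log2(TPM + 1) with limma (adjusted p = 0.00186). The ratio of 2 genes within a library does not depend on that scaling. In TPM, an abundance that divides by transcript length and library total, the sum of HLA-B and HLA-C relative to B2M was 0.413 and 0.424 in Cal51 and 0.591 and 0.548 in Cal51R. Both Cal51R ratios were higher, and the ratio of HLA-C to HLA-B also moved apart, from 1.85 and 1.81 in Cal51 to 2.06 and 2.07 in Cal51R. No test was run on these ratios.

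**Figure D2:**
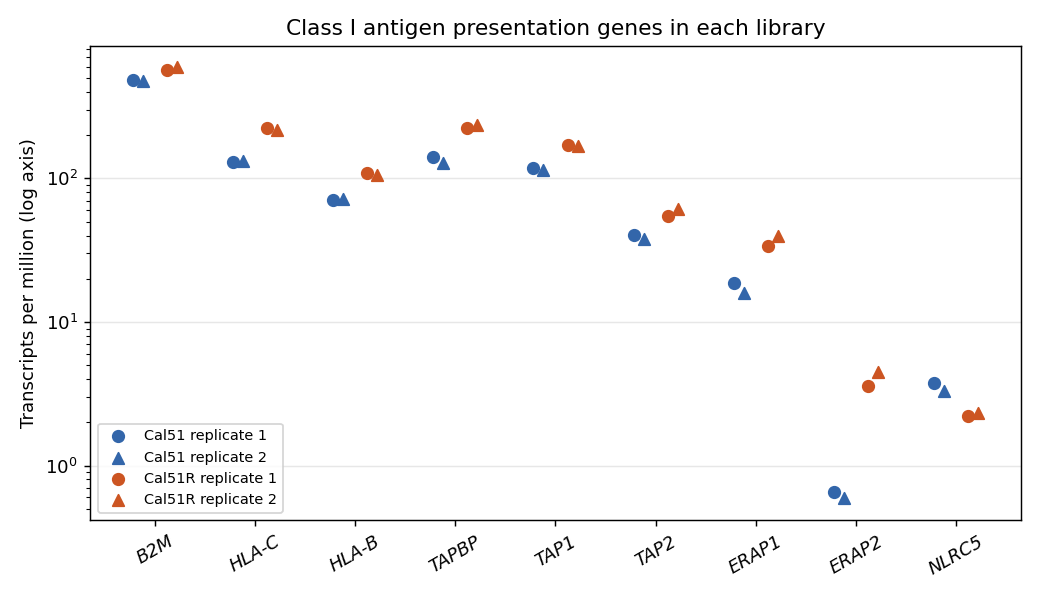
TPM of the 9 genes in each of the 4 libraries (log axis), with 1 point per library. For NLRC5 both Cal51 libraries sit above both Cal51R libraries, and for the 8 other genes the Cal51R libraries sit above, by least for B2M.

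The peptide transporter genes lie close together in the class II region, TAP2 at chr6:32821831-32838739 and TAP1 at chr6:32845209-32853704, both on the minus strand. TAP1 had 2865 and 2449 reads in Cal51 against 3406 and 3617 in Cal51R. Its level was 141.7 ± 1.04 CPM in Cal51 and 174.1 ± 9.04 in Cal51R (SD, n = 2 each), with no overlap. TAP1 was 1.23-fold higher (1.10 to 1.37, log2 0.30 ± 0.07 SE, edgeR adjusted p = 0.00183). PSMB8-AS1, a non-coding gene on the opposite strand, covers 9.49% of the exonic bases of TAP1.

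TAP2, the other subunit of the transporter, gave a different answer in counts and in TPM. It had 1662 and 1398 reads in Cal51 against 1674 and 2002 in Cal51R, or 81.8 and 81.3 CPM against 88.7 and 92.8. The Cal51R libraries were the higher ones by a narrow margin, and the 1.11-fold difference did not pass (0.996 to 1.24, log2 0.16 ± 0.08 SE, edgeR adjusted p = 0.0777). Per length, TAP2 stood at 40.1 and 38.0 TPM in Cal51 and 55.0 and 60.8 TPM in Cal51R, a log2 difference of 0.56 on log2(TPM + 1) that passed with limma (adjusted p = 2.16e-05). Part of the distance is the scaling, since with library totals the counts of TAP2 also passed (log2 0.35, edgeR adjusted p = 0.000645).

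A further part is the transcript length that the authors' values carry. Dividing a gene's expected counts by its FPKM, a count per transcript length and depth, and by the library total gives the average length assumed for its transcripts. For TAP2 this implied length was 4357 and 4347 bases in Cal51 and 3847 and 3903 bases in Cal51R, 11.0% shorter in Cal51R. Among 8229 genes with at least 5 FPKM in every library, 1.08% shortened as much or more, and 68.9% stayed within 1%. GENCODE 29 lists 3 coding transcripts of TAP2, of 5684, 5676 and 2497 bases. Transcript-level values were not used here, and another GENCODE gene on the same strand (AL669918.1) overlaps 32.3% of the exonic bases of TAP2. Which transcripts the shift comes from was not tested. For HLA-B, HLA-C, B2M, TAP1, TAPBP and ERAP1 the implied length moved by less than 1% between the lines. The ratio of TAP1 to TAP2 in TPM, 2.95 and 3.00 in Cal51 and 3.09 and 2.76 in Cal51R, overlapped between the lines. In counts, which carry no length, the same ratio was 1.72 and 1.75 in Cal51 and 2.03 and 1.81 in Cal51R, with no overlap.

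**Figure D3:**
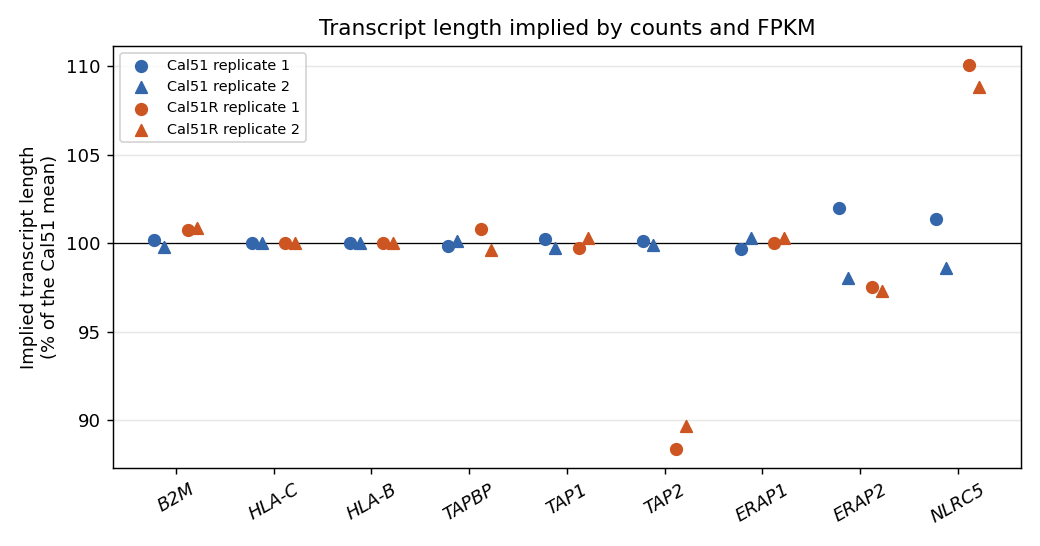
Transcript length implied by counts and FPKM in each library, as a percentage of the mean of the Cal51 libraries (y axis), for the 9 genes. TAP2 is the gene whose Cal51R libraries sit well below 100, and NLRC5, a gene under 5 FPKM where the estimate is coarse, lies above.

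TAPBP encodes tapasin, which bridges class I molecules to the transporter and favours peptides that bind tightly. It had 4469 and 3646 reads in Cal51 against 6009 and 6605 in Cal51R. Its level of 216.0 ± 5.53 CPM in Cal51 and 312.4 ± 8.61 in Cal51R (SD, n = 2 each) left a wide gap between the lines. TAPBP was 1.45-fold higher (1.30 to 1.61, log2 0.53 ± 0.07 SE, edgeR adjusted p = 5.82e-06), at chr6:33299694-33314078 on the minus strand. Relative to TAP1 it was 1.19 and 1.13 in TPM in Cal51 and 1.33 and 1.40 in Cal51R. Relative to the sum of HLA-B and HLA-C the ratios overlapped, at 0.700 and 0.634 in Cal51 and 0.673 and 0.726 in Cal51R.

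The trimming peptidases of the endoplasmic reticulum showed the largest rises of the 9 genes. ERAP1, which shortens long peptides from their amino end, had 790 and 602 reads in Cal51 against 1210 and 1503 in Cal51R. Its level was 36.9 ± 2.73 CPM in Cal51 and 66.9 ± 3.94 in Cal51R (SD, n = 2 each), clear of overlap. The fitted ratio was 1.81 (1.59 to 2.06, log2 0.86 ± 0.09 SE, edgeR adjusted p = 3.17e-07). ERAP1 shares 3.76% of its exonic bases with CAST on the opposite strand. CAST, the calpain inhibitor calpastatin, had 10373 reads over all libraries and did not pass (log2 0.14 ± 0.07 SE, edgeR adjusted p = 0.109).

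ERAP2, a related peptidase that prefers peptides beginning with basic residues, rose the most from a low level. It had 34 and 26 reads in Cal51 against 145 and 194 in Cal51R. As CPM that is 1.67 and 1.51 in Cal51 and 7.69 and 9.00 in Cal51R, so the lowest Cal51R library was several times above the highest Cal51 library. ERAP2 was 5.21-fold higher (3.86 to 7.05, log2 2.38 ± 0.21 SE, edgeR adjusted p = 2.95e-08). The log2 change kept its sign and call under all alternatives, between 1.63 and 2.58, and the smallest of these values came with a pseudocount that understates changes at low levels. ERAP2 shares no exonic base with another GENCODE 29 gene. In people ERAP2 is known to carry a common haplotype whose transcript is degraded, and which haplotypes these cells hold was not examined.

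Since ERAP2 rose more than ERAP1, the balance of the pair shifted. ERAP1 exceeded ERAP2 by a TPM ratio of 28.6 and 26.8 in Cal51 and of 9.54 and 8.80 in Cal51R. The genes are neighbours in opposite orientation, with ERAP2 at chr5:96875984-96919716 on the plus strand inside the annotated span of ERAP1, chr5:96760813-96935854 on the minus strand. Apart from ERAP1, 3 genes within 500 kb of ERAP2 were tested, of which 1 fell and 2 did not pass. LNPEP, the next gene and the third oxytocinase-family peptidase, stood at 66.4 ± 7.50 CPM in Cal51 and 63.7 ± 5.53 in Cal51R and did not pass (edgeR adjusted p = 0.578). The genes whose levels ran most like ERAP2 over the 4 libraries were MARK1, a microtubule-affinity kinase, RFX3, a transcription factor of ciliated cells, and GRAMD1B, a sterol transporter. Their root-mean-square distances from ERAP2 in centred log2 CPM were 0.0194, 0.0205 and 0.0301, and 61 of 12738 genes lay within 0.1.

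NLRC5, the class I transactivator, moved the other way. It was covered by 185 and 141 reads in Cal51 against 99 and 110 in Cal51R. Levels were 9.10 and 8.20 CPM in Cal51 and 5.25 and 5.10 in Cal51R, so both Cal51R libraries were lower. NLRC5 was 1.68-fold lower, a ratio of 0.597 (0.476 to 0.749, log2 -0.74 ± 0.15 SE, edgeR adjusted p = 0.000426). It lies at chr16:56989557-57083520 on the plus strand. Under all alternatives it remained called and lower, with log2 changes between -0.82 and -0.46 and adjusted p up to 0.0321. Among its 23 tested neighbours within 500 kb, 9 rose and 9 fell, among them CETP, which passed the count filter only through Cal51. CETP, the cholesteryl ester transfer protein gene just before it, fell from 9.42 ± 0.321 to 0.119 ± 0.0937 CPM (log2 -6.18 ± 0.33 SE, edgeR adjusted p = 7.73e-11), and CPNE2, a copine gene just after it, fell by 0.66 on the log2 scale (SE 0.08, edgeR adjusted p = 1.47e-06). The closest patterns to NLRC5 were those of CISH, URB1 and FAM117B, at distances of 0.0108, 0.0125 and 0.0150. A pattern of this size was common, with 777 of 12738 genes within 0.1.

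The 3 genes whose windows carry the TGACG and ATTGG pair through which NLRC5 is known to act were HLA-B, HLA-C and B2M. HLA-B and HLA-C rose and B2M did not pass, while NLRC5 fell. The listed genes of the RFX, NF-Y and CREB/ATF factors that read this module, named here for that role after their values were seen, moved in both directions. Of the RFX subunits, RFX5 rose from 74.5 ± 1.99 to 109.5 ± 1.15 CPM (1.47-fold, edgeR adjusted p = 5.87e-06) and RFXAP rose 1.25-fold (edgeR adjusted p = 0.021). RFXANK was at 33.2 ± 1.69 and 28.1 ± 3.84 CPM and did not pass (edgeR adjusted p = 0.0517). The call of RFXAP was lost without Cal51 replicate 1 (adjusted p = 0.0994), without Cal51 replicate 2 (0.12) and with DESeq2 (0.181). Of the NF-Y subunits, NFYA fell from 43.6 ± 1.67 to 32.1 ± 1.28 CPM (log2 -0.44, edgeR adjusted p = 0.000334) and NFYB from 73.8 ± 2.19 to 43.6 ± 4.98 CPM (log2 -0.76, edgeR adjusted p = 1.58e-06), while NFYC rose by a log2 of 0.25 (edgeR adjusted p = 0.0138). CREB1 fell from 47.8 ± 2.35 to 36.1 ± 2.47 CPM (log2 -0.40, edgeR adjusted p = 0.000846), and ATF1, at mean levels of 37.5 and 36.1 CPM, did not pass (edgeR adjusted p = 0.586). The falls of NFYA and CREB1 did not pass on log2(TPM + 1) with limma (adjusted p = 0.211 and 0.563), nor did that of CREB1 with library totals (edgeR adjusted p = 0.061). The rise of NFYC was lost in 5 alternatives, DESeq2 among them (adjusted p = 0.0697).

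Per length, the order of the 9 genes in Cal51 ran from B2M (480.2 to 488.3 TPM) over TAPBP, HLA-C, TAP1, HLA-B, TAP2 and ERAP1 (15.8 to 18.6 TPM) to NLRC5 (3.29 to 3.73 TPM) and ERAP2 (0.59 to 0.65 TPM). The ranges of TAPBP and HLA-C overlapped, and no other neighbours in the order did. In Cal51R the order was unchanged except at its end, where ERAP2 (3.57 to 4.50 TPM) stood above NLRC5 (2.21 to 2.34 TPM). TAPBP and HLA-C were then next to each other at a lowest value of 225.78 and a highest of 225.75 TPM. Within a library, B2M was above 98.4% to 98.9% of all genes, whereas ERAP2 was above 26.6% to 35.2% and NLRC5 above 31.6% to 37.4%.

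The surrounding pathway was followed with lists of genes by role. The 5 immunoproteasome genes, whose products replace or cap proteasome parts and favour peptides suited to class I, all rose. Over all tested genes 35.3% rose. The median log2 fold change of the 5 was 0.56, beside 0.02 over all genes tested. All 5 also rose with library totals and on TPM, scales on which 64.7% to 67.5% of all calls were higher. PSME2 and PSME1, the proteasome activator subunits, rose from 91.1 ± 9.81 to 137.5 ± 11.0 CPM (log2 0.60 ± 0.09 SE, edgeR adjusted p = 1.39e-05) and from 99.9 ± 4.67 to 150.1 ± 9.50 CPM (log2 0.59 ± 0.08 SE, edgeR adjusted p = 4.47e-06). The catalytic subunits PSMB10, PSMB9 and PSMB8 rose by 0.56, 0.34 and 0.30 on the log2 scale (edgeR adjusted p = 0.000387, 0.0158 and 0.00593). PSMB9 is the neighbour of TAP1, in the opposite orientation. Without Cal51 replicate 1, 3 of the 5 passed, since PSMB8 (edgeR adjusted p = 0.138) and PSMB9 (0.118) did not. PSMB9 also missed without Cal51R replicate 1 (0.215) and with DESeq2 (0.0815).

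Among 10 folding and loading helpers of the endoplasmic reticulum, 2 rose, 5 fell and 3 did not pass, with a median log2 fold change of -0.21, and the 7 that passed are close to the 70.8% of all tested genes. The direction of the list depended on the scaling: with library totals edgeR called 4 higher and 0 lower (1 lower at an unadjusted p under 0.05). On that scale 6395 of all 13674 tested genes rose and 3489 fell. DESeq2 with its own size factors called 1 higher and 6 lower. TAPBPL, the tapasin-related editor TAPBPR, rose from 6.35 ± 0.147 to 17.8 ± 0.665 CPM (2.80-fold, edgeR adjusted p = 2.91e-08). PRKCSH, a glucosidase subunit, rose 1.15-fold (edgeR adjusted p = 0.0379), a call lost in 5 of the alternatives. PDIA3, the disulfide isomerase ERp57 that pairs with tapasin, was 1.28-fold lower (edgeR adjusted p = 0.00042), and the chaperone CALR (calreticulin), the most abundant of the list per length, was 1.27-fold lower (edgeR adjusted p = 0.00112). The translocon gene SEC61A1 was 1.26-fold lower (edgeR adjusted p = 0.00105). With library totals the log2 changes of these last 3 were -0.15, -0.15 and -0.13, and none passed (edgeR adjusted p = 0.0516, 0.0701 and 0.0998).

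Cytosolic and other peptidases that trim or destroy class I peptides went down where they passed. Of 8 genes edgeR called 5 lower and 0 higher (0 also at an unadjusted p under 0.05 and with DESeq2), 3 did not pass, and the median log2 fold change was -0.24. Over all tested genes 35.5% fell and 70.8% passed in either direction, against 62.5% of these peptidases. With library totals 2 fell, beside 3489 of all 13674 tested genes. TPP2, tripeptidyl peptidase II, fell from 91.3 ± 1.25 to 36.2 ± 3.19 CPM (2.52-fold lower, edgeR adjusted p = 8.91e-10). THOP1, thimet oligopeptidase, was 1.98-fold lower (edgeR adjusted p = 6.77e-09). LAP3, leucine aminopeptidase, was 1.24-fold lower (edgeR adjusted p = 0.0043), which was lost with library totals (adjusted p = 0.262). NRDC, the most abundant of the list per length, was at 247.5 ± 8.26 and 222.3 ± 8.73 CPM and did not pass (edgeR adjusted p = 0.0675).

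Class I-like molecules and ligands of NKG2D, an activating receptor of natural killer and T cells, moved in both directions. Of 15 genes, 13 were tested, of which 7 rose, 3 fell and 3 did not pass, with a median log2 fold change of 0.45. The 10 that passed are 76.9% of those tested, near the 70.8% of all genes. The NKG2D ligand ULBP1 rose from 10.2 ± 0.378 to 51.0 ± 1.35 CPM (4.98-fold, edgeR adjusted p = 5.39e-12). ULBP3 rose 2.69-fold (edgeR adjusted p = 1.86e-09) and ULBP2 2.43-fold (edgeR adjusted p = 1.41e-07). The NKG2D ligands MICB and MICA, which lie in the MHC, went down. MICB was 1.84-fold lower (edgeR adjusted p = 4.84e-08) and MICA, the nearest tested gene beyond HLA-B, 1.47-fold lower (edgeR adjusted p = 7.19e-05). FCGRT, the neonatal Fc receptor heavy chain, which also pairs with beta-2-microglobulin, was 1.44-fold lower (edgeR adjusted p = 2.86e-05). These 6 kept their direction with library totals and on TPM. RAET1L, named after its values were seen, had 3 and 1 reads in Cal51 against 32 and 43 in Cal51R. It is among the 7 that rose and passed the count filter only through Cal51R, which favours a rise.

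Regulators of the pathway included 27 genes, of which 12 rose, 6 fell and 9 did not pass, with a median log2 fold change of 0.18. The 18 that passed are 66.7% of the list, near the 70.8% of all genes. IRF1, an interferon-induced factor that binds ISRE words, had 425 and 332 reads in Cal51 against 2110 and 2318 in Cal51R. It rose from 20.1 ± 1.13 to 109.7 ± 3.07 CPM (5.44-fold, edgeR adjusted p = 4.94e-13). IRF9, the DNA-binding part of the interferon-response complex ISGF3, rose 2.87-fold (edgeR adjusted p = 4.34e-07), and the receptor kinase JAK1 rose 2.39-fold (edgeR adjusted p = 2.18e-07). IFNGR2, a chain of the interferon-gamma receptor and the most abundant of the list per length in Cal51, was 1.92-fold lower (edgeR adjusted p = 2.68e-08). The NF-Y subunit NFYB was 1.69-fold lower (edgeR adjusted p = 1.58e-06), and EZH2, the histone methyltransferase of a complex known to silence class I genes in some tumours, was 1.56-fold lower (edgeR adjusted p = 4.47e-06). With library totals the list had 18 rises and 4 falls, beside 6395 rises and 3489 falls among all 13674 tested genes.

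Genes that act on class I molecules at the surface or in degradation numbered 10, of which 5 rose, 3 fell and 2 did not pass, with a median log2 fold change of 0.15. The 8 that passed are read against 70.8% of all genes. The ubiquitin ligase MARCHF8 rose from 22.2 ± 2.01 to 54.5 ± 0.565 CPM (2.44-fold, edgeR adjusted p = 4.16e-09). SUSD6, part of a complex that directs class I molecules to lysosomes, rose 1.44-fold (edgeR adjusted p = 5.8e-05). MARCHF1 rose 1.77-fold (edgeR adjusted p = 0.0292), a call lost without Cal51 replicate 1 (adjusted p = 0.351), without Cal51R replicate 2 (0.106) and with DESeq2 (0.237). MARCHF9 was 1.25-fold lower (edgeR adjusted p = 0.00718), lost with library totals (adjusted p = 0.278). SPPL3, a membrane protease and the most abundant of the list per length, was at 71.2 ± 3.09 and 68.1 ± 1.74 CPM (edgeR adjusted p = 0.484). MARCHF4, named after its values were seen, had 31 and 30 reads in Cal51 and none in Cal51R, at least 11.0-fold lower against a floor of 3 counts per library. B3GNT5, also named after its values were seen, had 35 and 23 reads in Cal51 against 7 and 4 in Cal51R. MARCHF4 and B3GNT5 are among the 3 that fell, and both passed the count filter only through Cal51, which favours a fall.

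**Figure D4:**
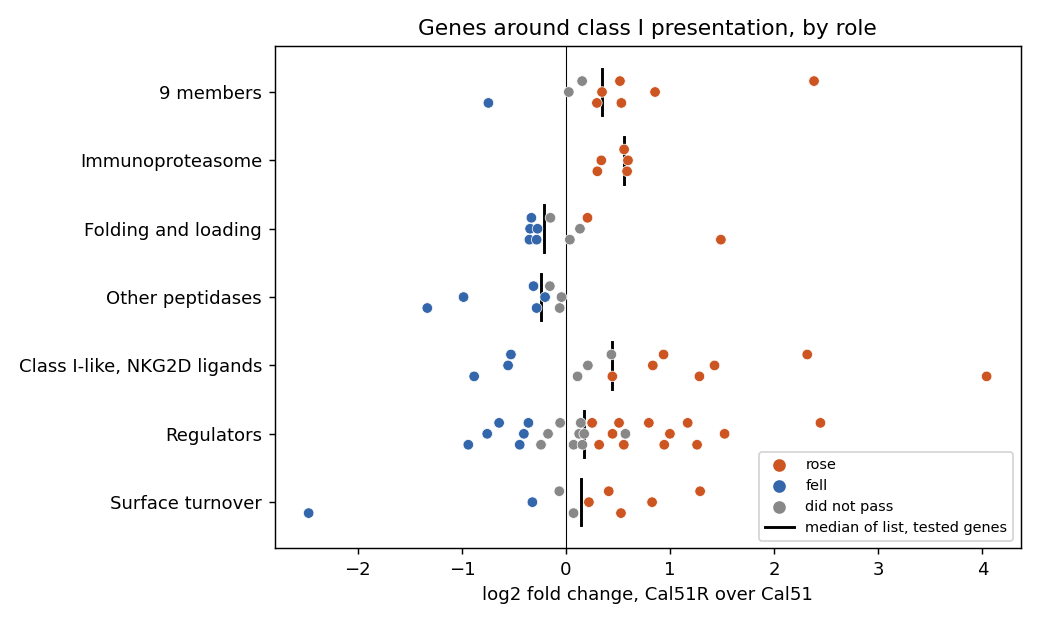
Log2 fold change in Cal51R over Cal51 (x axis) of the tested genes of each list, with 1 point per gene coloured by its call and a bar at the list's median over tested genes. MARCHF4, without a read in Cal51R, is counted in its median and not drawn. All 5 immunoproteasome genes lie right of 0, and no peptidase that passed does.

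Neighbours of the 9 genes moved in both directions, and their counts are read against the 35.3% of all tested genes that rose and the 41.4% of those on chromosome 6. Within 500 kb of HLA-C and HLA-B, 35 other genes were tested, of which 13 rose and 11 fell (median log2 fold change -0.03), and POU5F1 on the far side of HLA-C rose by a log2 of 0.50. Around TAP2 and TAP1 11 of 19 rose and 4 fell (median 0.30). Among those that rose was HLA-DOB on the TAP2 side, a gene with 1 and 5 reads in Cal51 against 12 and 12 in Cal51R. HLA-DOB and PSMB9, on the flanks, are also counted in the class II and immunoproteasome lists, so these counts share genes. Around TAPBP 13 of 28 rose and 10 fell (median 0.16), with PFDN6 lower by a log2 of -0.51 and ZBTB22 higher by 0.79 on its flanks. Around B2M 2 of 6 rose and 4 fell, and its nearest tested genes were SPG11 (log2 0.47, rose) and SORD (log2 -0.20, fell). The medians over whole chromosomes 5, 6, 15 and 16 were 0.08, 0.13, 0.05 and 0.13.

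Markers of cells that could carry class I and class II transcripts into these cultures were at low levels or moved in both directions. Of 15 leukocyte markers 12 were in the table, none of them at 0 in all libraries, and their summed level was 21.7 to 21.8 TPM in Cal51 and 8.79 to 9.99 TPM in Cal51R. The defining leukocyte marker PTPRC (CD45) had 5 and 3 reads in Cal51 against 12 and 12 in Cal51R. The T cell markers had few reads, did not all run the same way and were not tested. CD3E had 1 and 0 reads in Cal51 and 0 in either Cal51R library. CD3G had 2 and 4 reads in Cal51 against 9 and 8 in Cal51R, and CD8A 4 and 2 against 9 and 6. Of the 5 leukocyte markers tested, 3 rose and 2 fell, against 35.3% and 35.5% of all tested genes. PTPRC and LYZ, which had 3 and 1 reads in Cal51 against 11 and 11 in Cal51R, were among those that rose. Both passed the count filter only through Cal51R, and CD14 only through Cal51. With DESeq2 neither PTPRC (adjusted p = 0.261) nor LYZ (adjusted p = 0.116) passed. PTPRC also did not pass in edgeR with no filter (adjusted p = 0.0637). CD68 was 6.65-fold lower (edgeR adjusted p = 1.87e-09), CD14 had 46 and 58 reads in Cal51 against 2 and 0 in Cal51R, and ITGAM rose 1.77-fold (edgeR adjusted p = 0.00264).

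Class II and related genes were low and higher in Cal51R. Of 13 listed, 9 were in the table, and all 5 tested rose, against 35.3% of all tested genes. The summed level of the 9 was 13.4 to 14.3 TPM in Cal51 and 55.1 to 55.6 TPM in Cal51R. CD74, the invariant chain, took most of that sum and rose from 7.16 ± 0.242 to 23.2 ± 1.38 CPM (3.24-fold, edgeR adjusted p = 3.09e-09). The peptide exchange factor genes HLA-DMA and HLA-DMB rose 5.39-fold and 3.91-fold (edgeR adjusted p = 5.94e-05 and 8.72e-06) from about 1 CPM or less. HLA-DOB, with 1 and 5 reads in Cal51, and HLA-DMA, with 12 and 3, passed the count filter only through Cal51R, which favours a rise. With DESeq2 the rises of HLA-DOB (adjusted p = 0.195) and of CIITA, another of the 5 (adjusted p = 0.107), did not pass. The part of the class II markers in the class I changes was not tested.

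Of 8 fibroblast and endothelial markers tested 3 rose and 4 fell, against 35.3% and 35.5% of all tested genes. The 10 listed summed to 679.5 to 778.3 TPM in Cal51 and 286.2 to 306.0 TPM in Cal51R. COL1A2 made up 712.8 and 621.0 TPM of the sum in Cal51 and 188.5 and 197.4 TPM in Cal51R, where PECAM1 added 89.48 and 100.04 TPM. COL1A2 was 4.09-fold lower (edgeR adjusted p = 1.2e-12) and PDGFRB fell from 69.0 ± 3.58 to 0.513 ± 0.126 CPM (edgeR adjusted p = 2.93e-15). COL3A1 had 52 and 34 reads in Cal51 against 2 and 4 in Cal51R. COL3A1 and PDGFRB passed the count filter only through Cal51, and CDH5 only through Cal51R. PECAM1 rose 2.66-fold (edgeR adjusted p = 1.48e-10), PDGFRA rose 1.75-fold (edgeR adjusted p = 0.01, lost with DESeq2 at 0.131 and without Cal51 replicate 1 at 0.129), and CDH5 had 3 and 6 reads in Cal51 against 80 and 83 in Cal51R.

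A list of epithelial and breast receptor genes, which also holds the mesenchymal marker VIM, summed to 17945 to 19282 TPM in Cal51 and 10145 to 11230 TPM in Cal51R, mostly the keratins KRT8 and KRT18. Of its 11 tested genes 3 rose and 6 fell, with VIM among those that fell. These counts are read against the 35.3% of all tested genes that rose and the 35.5% that fell. KRT8 was 2.16-fold lower (edgeR adjusted p = 5.6e-08), EPCAM 2.37-fold lower (edgeR adjusted p = 2.16e-10) and KRT17 2.12-fold lower (edgeR adjusted p = 7.97e-05). KRT19 rose from 3.43 ± 0.0848 to 80.6 ± 3.72 CPM (edgeR adjusted p = 8.22e-15), KRT7 rose 3.94-fold (edgeR adjusted p = 1.22e-06) and the cell adhesion gene CDH1, at 1.11 ± 0.171 CPM in Cal51, rose 2.11-fold (edgeR adjusted p = 0.00721). The call of CDH1 was lost with DESeq2 (adjusted p = 0.0913) and without Cal51R replicate 2, where its log2 change was 0.64 in place of 1.07 (edgeR adjusted p = 0.183). The part of this shift in the class I changes was likewise not tested.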

How the data were processed

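Polyadenylated RNA of 2 Cal51 and 2 Cal51R libraries was sequenced as DNA nanoballs, per the labels' protocols. The build hg38 and the tools RSEM 1.2.8, Bowtie2 2.2.5, HISAT2 2.1.0 and DESeq appear in the submitters' processing notes without the step of each. The gene annotation used by the authors is not given. Counts, FPKM and TPM of each gene were deposited for each library, per the file headers. The deposited counts are expected counts, of which 27.0% to 31.8% per library were whole, and they were rounded for testing. The deposited TPM were used for levels and, as log2(TPM + 1) or log2(TPM + 0.1), in alternatives with limma 3.58.1. The authors' FPKM served only for implied transcript lengths.

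The test was edgeR 4.0.16 (R 4.3.3), quasi-likelihood, with TMM factors of 0.939, 0.927, 1.06 and 1.09, filterByExpr (minimum count 10) and line as the only term. It covered 13674 genes, left out 3541, and adjusted p-values by Benjamini-Hochberg over all tested. CPM are TMM-scaled, and the typical replicate coefficient of variation was 5.83%. Replicates differed beyond counting noise (chi-square per gene 4.43 and 6.89). DESeq2 1.42.0 and other scalings, filters, a replicate block and single libraries left out were alternatives. The functions were tested on simulated data.

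The 9 genes and the lists were chosen with earlier results of these data known, so no p is given over a list. From each list up to 3 genes in each direction with the largest fold change and a mean of at least 1 CPM are named, with the most abundant one, and all of the immunoproteasome. Genes most like ERAP2 and NLRC5 were ranked by distance in centred log2(CPM + 0.5) over 4 libraries. Positions are RefSeq spans on GRCh38.p14, matched by gene ID for 99.6% of genes, and overlaps come from GENCODE 29. Some genes of the region are not reported here.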

Additional observations from a re-analysis of the deposited data

How the results depend on the processing

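The count of changed genes was 9685 and ranged from 8180 to 10657 over 15 alternatives, and that of the 9 genes was 7 and ranged from 6 to 9. Leaving out 1 library at a time gave 8180 to 9813 genes and 6 to 7 of the 9. HLA-C, TAP1, TAPBP, ERAP1, ERAP2 and NLRC5 kept direction and call in all 15, and HLA-B lost its call in 1. TAP2 passed in 7 alternatives and B2M in 5, all 5 of them library totals or TPM. The share of higher genes among calls was 49.9%, and 64.7% to 67.5% on those scales, where limma on TPM called 3004 to 3038 genes lower in place of 4855. Counts that moved over 1.5 times were those of loading helpers (7, and 3 to 4 with totals or TPM), cytosolic peptidases (5, and 2 with totals or TPM, 3 without Cal51 replicate 2), immunoproteasome (5, and 3 without Cal51 replicate 1), surface control (8, and 5 with a 5 CPM filter), class II (5, 2 with that filter, 8 on unfiltered TPM), leukocyte markers (5, 1 with that filter, 3 with DESeq2 or without Cal51 replicate 2) and fibroblast and endothelial markers (7, and 4 with that filter). The filter tests fewer genes, and for the other settings the cause was not tested.

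Replicate numbers are not documented as a pairing, and same-numbered libraries deviated in opposite directions (correlation -0.229). With the number as a replicate block, 8905 genes and 7 of the 9 passed. With the numbers crossed, an alternative chosen after seeing the data, 10657 genes and 8 of the 9 passed. With 2 libraries a line, small changes such as that of TAP2 could be missed, and ERAP2 and NLRC5 rest on 26 to 194 reads a library.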
